A study of Mus musculus with 48 samples.

Results

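The genes described here carry out antigen presentation on major histocompatibility complex (MHC) class II molecules, and their messenger RNA was measured in mouse liver. The 8 members, Cd74, H2-Aa, H2-Ab1, H2-Eb1, H2-DMa, H2-DMb1, H2-DMb2 and Ciita, were chosen by symbol and found by Ensembl identifier among 55416 annotated genes. Earlier results of these data were known when they were chosen. All 8 passed the filter on low counts. RNA sequencing covered 48 livers in 6 groups of 8, from a knock-in study and a knockout study of the liver X receptor LXRα, the product of Nr1h3 and a nuclear receptor for oxidised cholesterol. The knock-in mice (DN) carried the dominant-negative allele p.W441R, made by CRISPR on C57BL/6J, and were wild-type (DN:WT), heterozygous (DN:HET) or homozygous (DN:HOM). The knockout mice (KO:WT, KO:HET and KO:HOM) carried a deletion allele from a mixed Sv129 and C57Bl/6 background, later backcrossed to C57BL/6. Every mouse, wild-type included, had eaten a western diet with 0.2% cholesterol for 8 weeks from about 8 weeks of age, and livers were taken at about 16 weeks. Heterozygous parents gave the litters. The methods state males for the knock-in study, and those for the knockout study name no sex, while a figure legend describes it as a repeat of the first. Both alleles are present in every cell of the animal, so no change can be assigned to one cell type by the design. The studies ran at different sites, so study, site and allele cannot be told apart, and knock-in was tested against knockout only as a difference between the effects measured within each study.

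On GRCm39, Cd74 (ENSMUSG00000024610) lies on chromosome 18 at 60936899 to 60945731 on the plus strand, and Ciita (ENSMUSG00000022504) on chromosome 16 at 10297923 to 10347694 on the plus strand. The other members lie in the class II region of chromosome 17. H2-DMa (ENSMUSG00000037649) spans 34338515 to 34358958, H2-DMb2 (ENSMUSG00000037548) 34362197 to 34370529 and H2-DMb1 (ENSMUSG00000079547) 34372046 to 34379204, all on the plus strand. H2-Ab1 (ENSMUSG00000073421) spans 34476663 to 34488393 on the plus strand, H2-Aa (ENSMUSG00000036594) 34493404 to 34506798 on the minus strand and H2-Eb1 (ENSMUSG00000060586) 34504236 to 34535648 on the plus strand. The ends of the H2-Aa and H2-Eb1 gene models overlap on opposite strands, and the stranded counts used here separate their reads.

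Class II molecules display peptides from endocytosed proteins to CD4+ T cells. They are made mainly by dendritic cells, B cells and activated macrophages, and interferon-γ can induce them in other cells. H2-Aa and H2-Ab1 encode the α and β chains of I-A, H2-Eb1 encodes the β chain of I-E, and the invariant chain Cd74 blocks the groove until the complex reaches the endosome. There the H2-DM heterodimer, with its α chain from H2-DMa and its β chain from H2-DMb1 or H2-DMb2, exchanges the last fragment of invariant chain for peptide. Ciita encodes the co-activator that switches these genes on. It does not bind DNA itself and docks on factors at the conserved X and Y boxes of class II promoters. The I-E α chain gene H2-Ea, which C57BL/6 mice do not express because of a promoter deletion, had 0 reads in 47 of the 48 livers and at most 1 read in any.

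RefSeq promoter windows on GRCm38.p6, from 250 bases before to 50 after a transcription start, were held for 5 members, and no window was held for Cd74, H2-Ab1 or Ciita. They were searched on both strands for AGCAAC, as in an X1 box, for TGACG or TGATG, as in an X2 box, and for the Y box core ATTGG, and copies of TGATG can overlap each other. These letters are common. AGCAAC occurred in 14.8% of 32851 windows, TGACG in 20.8%, TGATG in 39.3% and ATTGG in 37.4%. The order of an X2-like motif starting 15 to 40 bases before ATTGG on the same strand, an arrangement set after the windows had been read, occurred in 2.13% of windows and in those of 4 members. These stretches, all upstream of the start and printed 5′ to 3′ along the gene with copies of the 4 motifs on that strand in capitals and those on the other strand left in lower case, show that shared layout:
H2-Aa: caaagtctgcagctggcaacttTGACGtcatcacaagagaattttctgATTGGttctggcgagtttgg
H2-Eb1: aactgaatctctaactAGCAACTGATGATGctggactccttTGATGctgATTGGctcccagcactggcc
H2-DMb1: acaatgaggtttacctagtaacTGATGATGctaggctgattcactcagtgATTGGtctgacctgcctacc
H2-DMb2: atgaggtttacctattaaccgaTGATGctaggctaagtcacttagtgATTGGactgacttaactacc

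In order, they are chr17:34287852-34287919 on the minus strand, chr17:34305759-34305827, chr17:34153080-34153149 and chr17:34145112-34145178, the last 3 on the plus strand. The X2-like motif began 26, 27, 28 and 25 bases before ATTGG. Neither of the 2 windows held for H2-DMa had this order of motifs. The match is a description of letters, and binding was not measured.

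Reads assigned to genes numbered 5332897 to 16961379 per liver, with 2 livers, of KO:HET and KO:HOM, under 10000000. Levels are given in counts-per-million units (CPM) after trimmed-mean scaling, and differences as log2 fold changes from edgeR's quasi-likelihood test, with p-values adjusted over all 15711 genes tested. The labels were checked on Nr1h3 first. Its level was 25.2 to 31.1 CPM in KO:HOM, 48.3 to 65.4 in KO:HET and 81.4 to 108 in KO:WT, with no overlap. In the knock-in study, whose allele changes the protein, it was 68.3 to 77.3 CPM in DN:HOM and 82.0 to 96.8 in DN:WT without the livers labelled DN:WT animal 10, at 71.2 CPM, and DN:HOM animal 12, at 86.8 CPM. Each of those livers lay in the other group's range, and Cd74 was 333 CPM in the first and 36.8 CPM in the second. Clec4f, a lectin of Kupffer cells, was 0.202 CPM in DN:WT animal 10 and 60.3 to 108 CPM in the other DN:WT livers, and 62 CPM in DN:HOM animal 12 and 0.192 to 0.631 CPM in the other DN:HOM livers. Whether these 2 labels were exchanged was not tested, and every value over all 48 livers keeps the labels as given. A table of source data from the study, which covers knock-in livers only, omits both, without a reason given in the sources used here, whereas a figure legend gives the full number of livers in every group. The values below rest on the 46 other livers, a set inferred from that table, with n = 7 in DN:WT and DN:HOM and n = 8 elsewhere, and the values over all 48 stand beside them. Nothing in the labels joins animals across groups, and each liver was counted as 1 replicate.

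The class II genes were higher in homozygous mutant liver in both studies. In DN:HOM against DN:WT, 7 of the 8 members rose, against a background of 29.1% of all genes tested that were called higher, and the median log2 fold change of the members was 2.69 beside -0.01 for all genes. All 8 members rose in KO:HOM against KO:WT, where the background was 11.5%, and their median was 3.64 beside -0.02. Every homozygous liver lay above every wild-type liver of its study for 7 members in DN, where 17.7% of all genes did so, and for the same 7 members in KO, where 2.18% did. H2-DMb2 was the exception in both. Over all 48 livers the counts of members called stayed 7 and 8, against backgrounds of 23% and 8.79%, but the knock-in groups then overlapped for all 8 members.

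**Figure D1:**
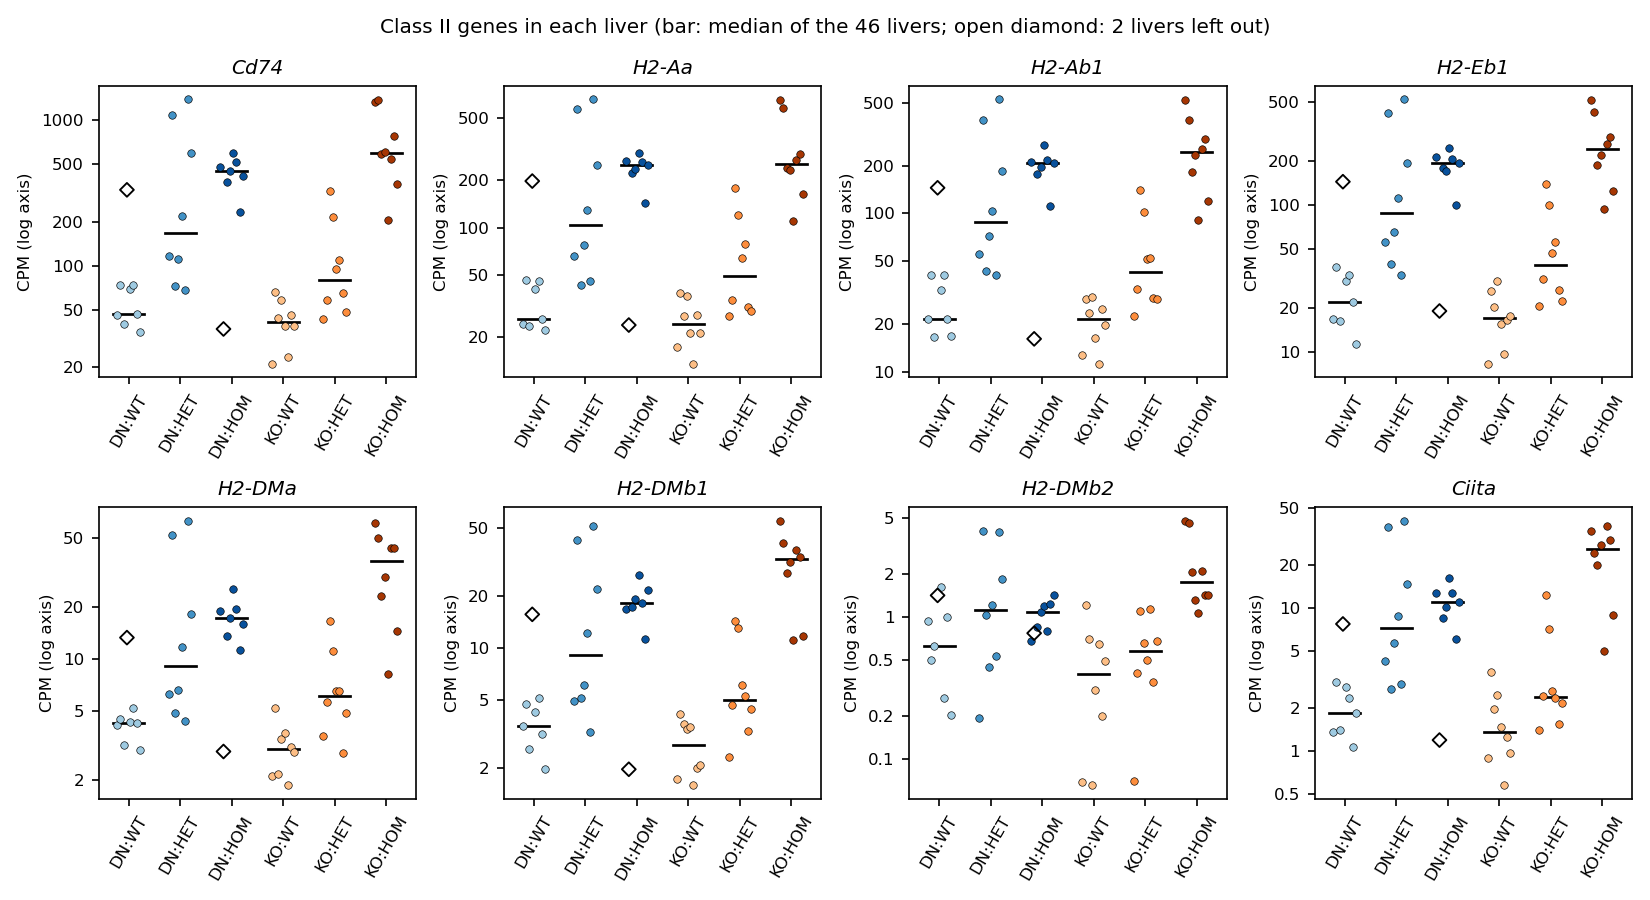
Level of each of the 8 class II genes in every liver, in CPM on a log axis, by genotype group. Points are livers, bars the median of the 46 livers, and open diamonds the livers labelled DN:WT animal 10 and DN:HOM animal 12. For Cd74 the DN:HOM livers sit between 233 and 596 CPM and the KO:HOM livers between 208 and 1381 CPM, above all wild-type livers of the 46, while the diamonds lie at 333 CPM in DN:WT and 36.8 CPM in DN:HOM and DN:HET livers spread from 67.7 to 1398 CPM.

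The invariant chain Cd74 separated the genotypes in both studies. Its level ran from 35.3 through a median of 46.7 to 74.3 CPM in DN:WT, and from 233 through 451 to 596 CPM in DN:HOM, with means of 54.9 ± 16.7 (SD, n = 7) and 438 ± 115 (SD, n = 7). The log2 fold change in DN:HOM was 3.01 ± 0.54 (SE), with an edgeR adjusted p of 6.77e-06, and 2.11 ± 0.57 over all 48 livers, with an adjusted p of 0.00251. In KO:WT the level was 21.2, 41.4 and 65.6 CPM at its lowest, median and highest, and in KO:HOM 208, 598 and 1381 CPM. The log2 fold change in KO:HOM was 4.11 ± 0.53 with an adjusted p of 7.67e-07. Animals 11 and 8, at 1381 and 1345 CPM, led the KO:HOM livers, and animal 22 was the lowest for all 8 members. By median, as a description across both sites with no test, the 6 groups ran from KO:HOM through DN:HOM, DN:HET at 168 CPM, KO:HET at 80.2 CPM and DN:WT to KO:WT. Of the neighbours tested within a study, DN:HOM and DN:HET did not differ beyond their spread, and KO:HET and KO:WT differed by 1.52 on the log2 scale, with a 95% interval of 0.54 to 2.49, a difference that did not pass the adjustment over all genes.

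The chains of the class II heterodimer followed the same course. H2-Aa, the I-A α chain, ran from 22.2 through 26.3 to 46.3 CPM in DN:WT and from 144 through 252 to 300 CPM in DN:HOM. Its log2 fold change was 2.90 ± 0.50, with an adjusted p of 3.47e-06. KO:WT livers had 13.6 to 38.2 CPM of it, with a median of 24.4, and KO:HOM livers 110 to 649 CPM, with a median of 255, a log2 fold change of 3.63 ± 0.49. H2-Ab1, the I-A β chain, was 16.6 to 41.0 CPM in DN:WT (median 21.6) and 112 to 269 CPM in DN:HOM (median 209). In the knockout study it was 11.2 to 29.4 CPM in KO:WT (median 21.5) and 91.1 to 520 CPM in KO:HOM (median 244). Its log2 fold changes were 2.88 ± 0.48 in DN:HOM and 3.65 ± 0.46 in KO:HOM, with adjusted p of 1.51e-06 and 4.44e-07. H2-Eb1, the I-E β chain, rose as well, while its α chain partner H2-Ea had at most 1 read per liver. Its level was 11.4 to 37.9 CPM in DN:WT (median 21.8) and 99.7 to 245 CPM in DN:HOM (median 192), and 8.31 to 30.3 CPM in KO:WT (median 17.1) against 94.2 to 518 CPM in KO:HOM (median 240). The log2 fold changes were 2.97 ± 0.51 and 3.88 ± 0.49. For these 3 chains no homozygous liver of the 46 overlapped a wild-type liver of its study.

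The peptide exchange genes divided. H2-DMa was 3 to 5.20 CPM in DN:WT (median 4.28) and 11.3 to 25.4 CPM in DN:HOM (median 17.3), a log2 fold change of 2.10 ± 0.47 with an adjusted p of 0.00019. In KO:WT it was 1.87 to 5.24 CPM (median 3.02) and in KO:HOM 8.18 to 61.2 CPM (median 36.8), a log2 fold change of 3.48 ± 0.47. H2-DMb1 showed 1.97 to 5.07 CPM in DN:WT (median 3.50), 11.2 to 26.7 CPM in DN:HOM (median 18.2), 1.58 to 4.10 CPM in KO:WT (median 2.73) and 11.1 to 55.2 CPM in KO:HOM (median 32.9). Its log2 fold changes were 2.39 ± 0.47 and 3.51 ± 0.46, with adjusted p of 2.54e-05 and 7.72e-07. The second β chain gene, H2-DMb2, was read least often, with 1 to 78 reads per liver and a median of 14. Its level in DN:HOM, 0.677 to 1.44 CPM with a median of 1.08, lay within the DN:WT range of 0.204 to 1.63 CPM, whose median was 0.626. The log2 fold change of 0.51 ± 0.52 had an adjusted p of 0.408. In KO:HOM it was 1.07 to 4.77 CPM (median 1.76) against 0.0651 to 1.21 CPM in KO:WT (median 0.396), a log2 fold change of 2.34 ± 0.51 with an adjusted p of 0.000692, and 7 of 8 KO:HOM livers lay above every KO:WT liver. H2-DMb1 and H2-DMb2 share 179 identical 100-base stretches of transcript, 11.3% and 8.71% of each gene's stretches, so that some of their reads could not be placed and their counts are less certain than those of the other members.

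Ciita, the co-activator, moved with its targets. DN:WT livers had 1.07 to 3.04 CPM (median 1.84) and DN:HOM livers 6.11 to 16.1 CPM (median 11.1). The log2 fold change was 2.5 ± 0.54 with an adjusted p of 0.000116. KO:WT livers had 0.574 to 3.56 CPM (median 1.36) and KO:HOM livers 4.97 to 37.6 CPM (median 26), a log2 fold change of 3.83 ± 0.53 with an adjusted p of 1.8e-06. Neither pair of groups overlapped. Over all 48 livers the DN:HOM fold changes of the 7 called members were 1.56 to 2.11 on the log2 scale, and those of all 8 members in KO:HOM 2.34 to 4.12.

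**Figure D2:**
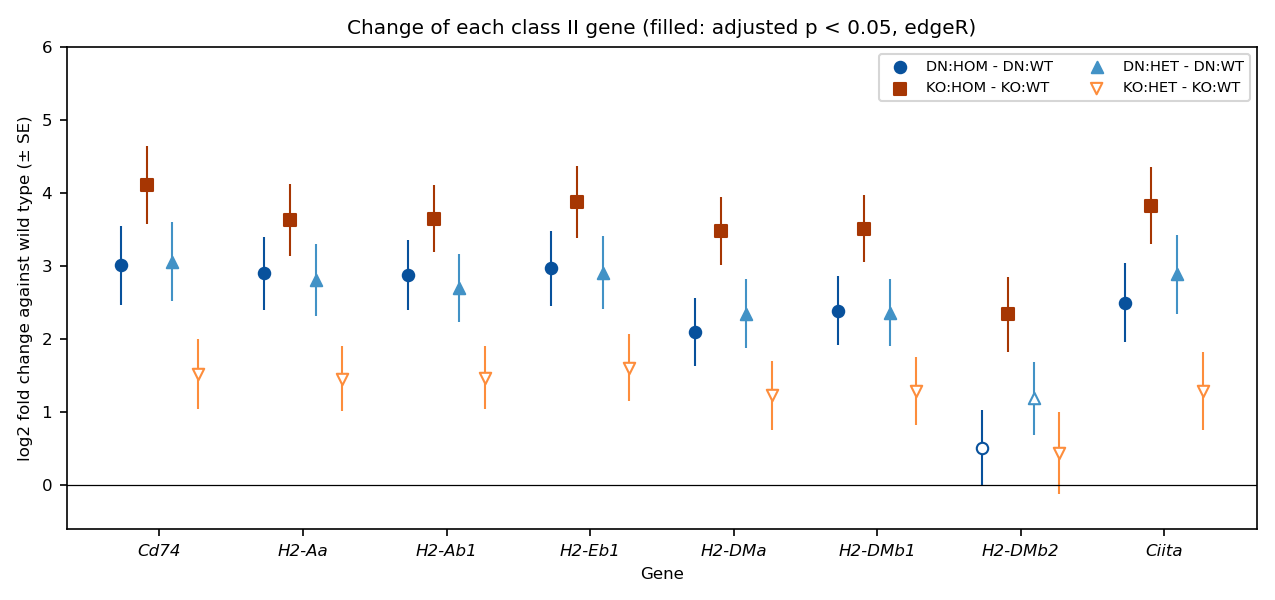
Log2 fold change of each member against wild-type in DN:HET, DN:HOM, KO:HET and KO:HOM, with its standard error, from edgeR over 46 livers. Filled points have an adjusted p below 0.05. In KO:HOM all 8 members lie between 2.34 and 4.11, and in DN:HET 7 are filled whereas in KO:HET none is.

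Heterozygous livers differed among themselves. Against DN:WT, 7 members rose in DN:HET, all but H2-DMb2, where 2.23% of all genes were called higher, with a median of 2.76 beside -0.01 for all genes. The log2 fold changes were 3.06 ± 0.54 for Cd74 with an adjusted p of 0.00186, 2.81 ± 0.49 for H2-Aa, 2.70 ± 0.47 for H2-Ab1, 2.91 ± 0.50 for H2-Eb1, 2.35 ± 0.47 for H2-DMa, 2.36 ± 0.46 for H2-DMb1 and 2.89 ± 0.54 for Ciita. H2-DMb2 had 1.19 ± 0.50 and an adjusted p of 0.256. This count rests on the livers and groups used. With all 48 livers 2 members were called, Ciita at 2.41 and H2-DMa at 1.98, against a background of 0.25%, and with only DN:HET and DN:WT in the fit, where 0.0144% of genes were called higher, none of the 8 was called, at log2 fold changes of 2.38 to 3.09 and adjusted p of 0.16 to 0.19 for the 7. A fit of all groups shares one estimate of the spread, and Cd74 in DN:HET had an SD of 520 CPM about a mean of 459.

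That spread came from a few livers. Cd74 was 1398 CPM in DN:HET animal 22, 1090 in animal 4, 595 in animal 29 and 221 in animal 16, and 67.7 to 116 CPM in the other 4. Animals 22 and 4 exceeded every DN:HOM liver for all 8 members, and animals 22, 4, 29 and 16, in this order, were the highest for 7 members. H2-DMb2 had animal 4 first. Between 6 and 7 of the 8 DN:HET livers lay above every DN:WT liver for each member but H2-DMb2, for which 3 did. Ciita ran from 2.70 through 7.25 to 40.8 CPM in DN:HET, H2-Eb1 from 33.4 through 88.2 to 524 CPM, and H2-DMa from 4.37 through 9.16 to 62.8 CPM. Without animal 22, 6 members were called, and H2-DMa had a log2 fold change of 1.87 and an adjusted p of 0.06.

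Between DN:HOM and DN:HET no member was called by edgeR or by DESeq2, and none had an unadjusted p below 0.05, whereas 26.1% of all genes were called higher in DN:HOM. The log2 fold changes, which compare group means, ran from -0.67 for H2-DMb2 to 0.18 for H2-Ab1. The median of Cd74 was 168 CPM in DN:HET and 451 in DN:HOM, and that of H2-Ab1 88 and 209 CPM. Only H2-DMb2 had its lower median in DN:HOM, at 1.08 CPM against 1.12 in DN:HET. The 95% interval for Cd74 was -1.03 to 0.93 and that for Ciita -1.32 to 0.54, so differences of up to about those sizes were not resolved. The sign depended on the livers used, with 4 members above 0 among the 46 livers and 0 of 8 over all 48.

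In KO:HET against KO:WT the same 7 genes had log2 fold changes of 1.23 to 1.61, but none of the 8 members was called by edgeR, at adjusted p of 0.465 to 0.924, or by DESeq2. 7 had an unadjusted p below 0.05. The background was 0.0127% of genes called higher. Cd74 ran from 43.2 through 80.2 to 329 CPM, with the highest levels in KO:HET animals 4 and 6, at 329 and 215 CPM. These 2 animals were the highest for all members but H2-DMb2, and 2 to 6 of the 8 livers lay above every KO:WT liver for those 7 members. KO:HOM stood above KO:HET for all 8 members, against a background of 7.24%, by 1.90 for H2-DMb2 to 2.60 for Cd74 on the log2 scale, with adjusted p of 0.000914 to 0.00931. KO:HOM and KO:HET livers overlapped for every member, and for Cd74 KO:HOM animal 22, at 208 CPM, lay below KO:HET animals 4 and 6.

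Set against each other, the knock-in effect minus the knockout effect in homozygotes was -1.82 to -0.74 on the log2 scale over the 8 members, with a median of -1.11, and only H2-DMb2 was called, while 2 had an unadjusted p below 0.05. The differences over all 48 livers were -2.05 to -1.59 with a median of -1.88, and edgeR called none, although all 8 had an unadjusted p below 0.05. Its difference was -1.82 ± 0.73 with an adjusted p of 0.0475, in a comparison where 18.3% of all genes were called lower. The next was H2-DMa at -1.38 ± 0.65, with an adjusted p of 0.0929 and a 95% interval of -2.69 to -0.07. Cd74 differed by -1.10 with an interval of -2.50 to 0.30. The call on H2-DMb2 stood at the threshold. Over all 48 livers its difference was -2.05 with an adjusted p of 0.0504, where 6.42% of genes were called lower, and it was kept in 14 of 30 fits that left out 1 homozygous or wild-type liver. With only the 4 compared groups in the fit, 5 members were called, against 19.4% of genes called lower.

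The members were then compared with H2-Ab1 in the same liver. With 2 counts added to each gene before logs, the ratio of a gene with few reads, such as H2-DMb2, also depends on depth. For each member the log2 ratio to H2-Ab1 in homozygous livers was set against that in wild-type livers by a two-sided exact permutation test, and the 14 p-values were adjusted together. The smallest p possible was 0.00058 with 7 livers a group and 0.00016 with 8. In the knock-in, the H2-DM genes and Ciita increased less than H2-Ab1. The ratio changed by -0.89 for H2-DMa, -0.56 for H2-DMb1 and -2.37 for H2-DMb2, each with an adjusted permutation p of 0.0041, and by -0.48 for Ciita with 0.012. Cd74, H2-Aa and H2-Eb1 changed by 0.09, 0.00 and 0.10 relative to H2-Ab1, which did not pass. In the knockout, Cd74 increased more than H2-Ab1, by 0.45 with an adjusted permutation p of 0.0041, as did H2-Eb1, by 0.26 with 0.0074. H2-DMb2 changed by -1.37 with 0.015. Neither H2-DMa, at -0.27, H2-DMb1, at -0.18, nor Ciita, at 0.15, passed there. Over all 48 livers the Ciita ratio in the knock-in no longer passed, at -0.35 with an adjusted permutation p of 0.091. The H2-DMb2 ratios depend on the value added before logs, and in the knockout the change no longer passed, with an adjusted permutation p of 0.16, when 0.5 rather than 2 counts were added.

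**Figure D3:**
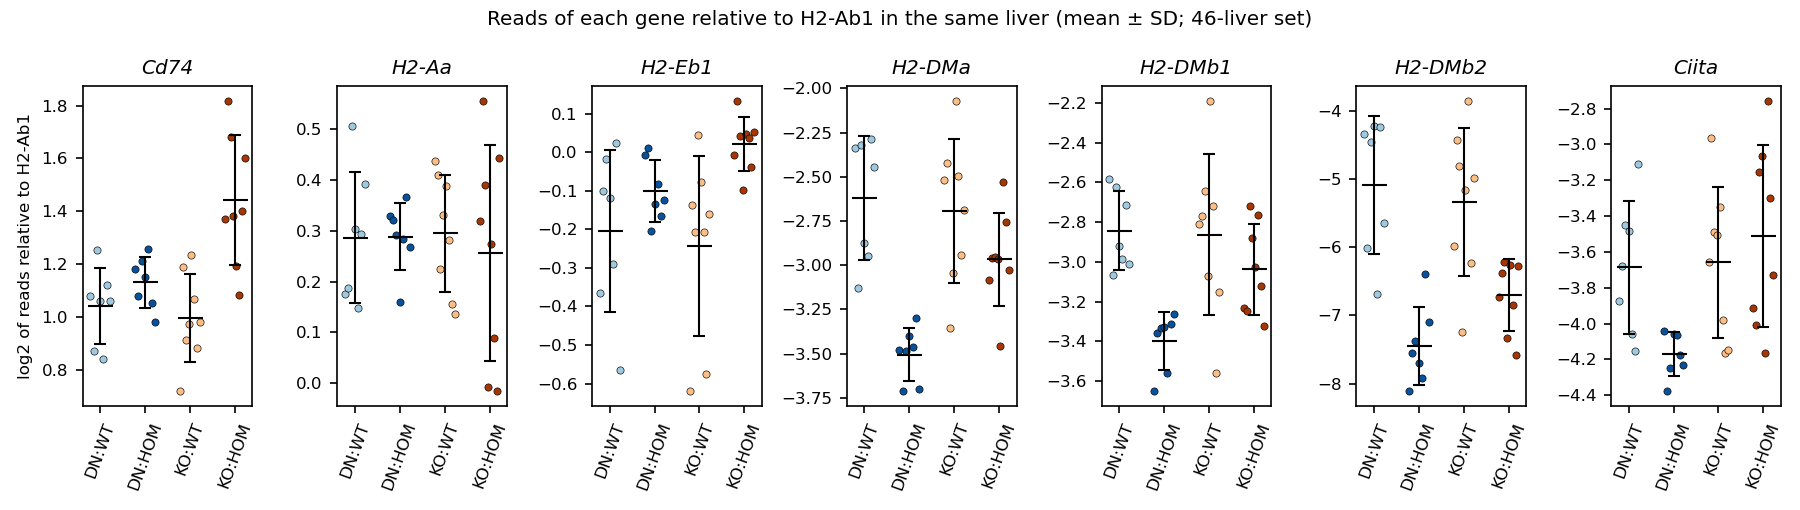
Log2 of the reads of each other member relative to H2-Ab1 in the same liver, for the wild-type and homozygous livers among the 46. Points are livers and bars the mean ± SD, and each panel has its own scale. The DN:HOM livers differ from DN:WT by -0.89 for H2-DMa, and the KO:HOM livers from KO:WT by 0.45 for Cd74.

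Within each group the members varied together from liver to liver. Cd74 was correlated with the 7 other members in each of the 6 groups, on log2 CPM over 7 or 8 livers, which gave 42 relations tested by permutation. Without H2-DMb2, Pearson's r was 0.75 to 0.996 and Spearman's rho 0.5 to 1 over 36 relations, of which 35 passed for r and 31 for rho after adjustment over the 42. The exception for r was Ciita in DN:WT. H2-DMb2 had r of -0.286 to 0.868 and passed for r in DN:HET and KO:HOM. When the 2 livers farthest from the median of Cd74 were left out, r of the 36 relations ran from -0.189 to 0.991, and the lowest, H2-DMb1 in DN:HOM, rests on those livers.

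Other genes were ranked by how closely their deviations from the group means followed those of Cd74 over the 46 livers, among 13161 genes with a mean above 1 CPM. H2-Aa (r = 0.986), H2-Eb1 and H2-Ab1 (0.98 each), H2-DMb1 (0.95) and H2-DMa (0.941) came first, and Ciita was seventh at 0.919. The 10 other genes closest to Cd74 were H2-D1 (0.923), a class I heavy chain, Il10ra (0.913), Gbp8 (0.909), Ctss (0.909), Ms4a6b (0.906), Cybb (0.905), Apobec3 (0.902), Fxyd5 (0.9), Fcer1g (0.9) and Slamf8 (0.898). Ctss encodes cathepsin S, the protease that trims the invariant chain, Cybb a subunit of the phagocyte oxidase and Fcer1g the signalling chain of Fc receptors. Whether they were called in a comparison is not counted here, since they were chosen for likeness to Cd74 in these livers. These r values describe libraries that share depth and cell content, and carry no p.

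Genes that act with the members on the pathway were taken from lists. Beside the list counts that follow, the shares of all genes called higher were 29.1% in DN:HOM and 11.5% in KO:HOM. They were 2.23% in DN:HET and 0.0127% in KO:HET. Over all 48 livers the shares were 23% in DN:HOM, 8.79% in KO:HOM and 0.25% in DN:HET. Of the other class II genes, H2-Eb2, H2-Oa, H2-Ob and H2-Ea, 3 could be tested. All 3 rose in KO:HOM, with log2 fold changes of 3.2 for H2-Eb2, 2.20 for H2-Oa and 1.07 for H2-Ob, the last 2 being the chains of the H2-O heterodimer that restrains H2-DM. In DN:HOM only H2-Eb2 rose, by 1.90, and this was not called over all 48 livers. By edgeR none was called in DN:HET, where 2 had an unadjusted p below 0.05, or in KO:HET, where 0 had.

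Among 17 factors of class II promoters and interferon-γ signalling, 16 were tested by edgeR, whose filter removed Ifng itself, with 0 to 19 reads per liver. On those few reads DESeq2 called Ifng higher in KO:HOM and DN:HET, but not in DN:HOM or KO:HET, against wild-type. It also called Ifng lower in DN:HOM than in DN:HET. By edgeR, 8 factors were higher and 1 lower in DN:HOM, and 8 higher and 0 lower in KO:HOM. In DN:HET 2 were higher and in KO:HET none, with 1 at an unadjusted p below 0.05 there. The list medians in these 4 groups were 0.27, 0.29, 0.27 and 0.08. Over all 48 livers 6 were higher and 1 lower in DN:HOM and 7 higher in KO:HOM, and in DN:HET Socs1 alone of Socs1 and Irf8 was still called. Factors that occupy the X and Y boxes had log2 fold changes of -0.40 to 0.37 in the homozygous groups, with 3 called in DN:HOM and none in KO:HOM, where the smallest edgeR adjusted p was 0.0708 and Rfxap alone had an unadjusted p below 0.05. Rfxank, a subunit of the X box complex RFX, fell by 0.40 in DN:HOM with an adjusted p of 0.00704 and had -0.06 in KO:HOM, and Creb1, of the X2 box, rose by 0.29 in DN:HOM and had 0.01 in KO:HOM. Rfx5, also of RFX, had log2 fold changes of 0.37 in DN:HOM and 0.17 in KO:HOM, with adjusted p of 0.0353 and 0.474, and was not called over all 48 livers, where its DN:HOM value was 0.21, and Nfya, of the Y box complex, 0.26 and 0.18, with 0.0598 and 0.277. The homozygous effects on Irf1 and Socs1 differed between the alleles. Irf1, which acts at a Ciita promoter, was 34.3 to 61.5 CPM in DN:HOM and 25.2 to 82.8 in DN:WT, but 33.3 to 143 CPM in KO:HOM and 19.4 to 46.2 in KO:WT. It changed by 1.53 in KO:HOM and 0.23 in DN:HOM, a difference of -1.29 with an adjusted p of 0.0108. The interferon feedback inhibitor Socs1 changed by 4.42 and 1.09, a difference of -3.33 with 0.00221. Both differences were also called over all 48 livers, at -1.42 and -3.45. Conversely, the receptor chains Ifngr1 and Ifngr2 rose more in DN:HOM, by 1.79 and 1.37, than in KO:HOM, by 0.58 and 0.52, but those differences were not called over all 48 livers. Irf8 rose in both, by 1.56 in DN:HOM and 1.87 in KO:HOM.

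**Figure D4:**
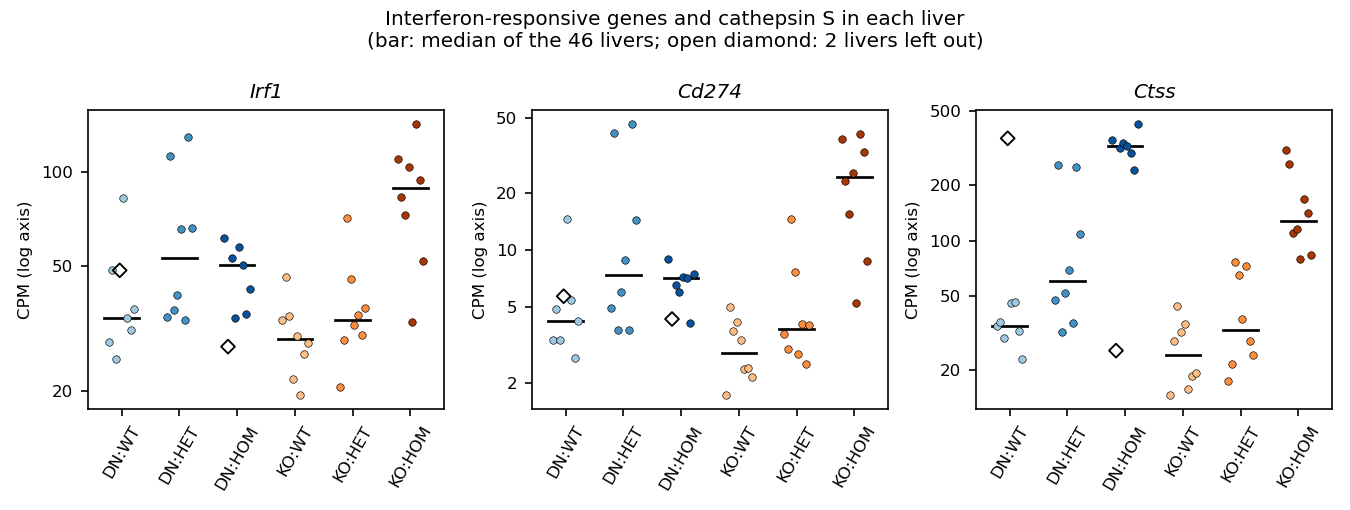
Levels of Irf1, Cd274 and Ctss in every liver by group, in CPM on a log axis. Points are livers, bars the median of the 46 livers and open diamonds the livers labelled DN:WT animal 10 and DN:HOM animal 12. Cd274 runs from 5.29 to 41.2 CPM in KO:HOM, whereas in DN:HOM it stays between 4.14 and 9.02 CPM.

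Of 9 genes of endosomal processing and class II turnover, all rose in DN:HOM (median 0.93, 8 over all 48 livers) and 5 in KO:HOM (median 0.45, 4 over all 48 livers). Ctss rose most, by 3.21 in DN:HOM and 2.60 in KO:HOM. Ifi30, a lysosomal thiol reductase, rose by 0.93 and 1.06, the former not called over all 48 livers, and Marchf1, a ubiquitin ligase that sends class II molecules for degradation, by 1.40 and 1.3. Ctsd and Lgmn, broader lysosomal proteases, had 0.93 and 1.39 in DN:HOM and 0.26 and 0.45 in KO:HOM, where they were not called. In DN:HET Ctss, Marchf1 and Ifi30 were called among the 46 livers, and 0 of the 9 over all 48, with 2 at an unadjusted p below 0.05. With only DN:HET and DN:WT in the fit, where 0.0144% of all genes were called higher, Ctss was not called.

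Receptors and costimulatory molecules of the presenting cell gave 6 of 8 higher in DN:HOM, 2 of 7 tested over all 48 livers, and 7 higher and 1 lower in KO:HOM, 5 and 1 over all 48 livers. Of all genes tested, 29.1% were called higher in DN:HOM and 11.5% in KO:HOM, and over all 48 livers 23% and 8.79%. Cd44, which pairs with the invariant chain as a receptor for macrophage migration inhibitory factor, rose by 2.70 in DN:HOM and by 1.09 in KO:HOM, the latter not called over all 48 livers, and the factor itself, Mif, fell by 0.34 in KO:HOM. Cd40 rose by 1.40 and 3.37, Cd80 by 1.48 and 1.95, and Cd86 by 0.89 and 1.22, and over all 48 livers these 3 were called in KO:HOM only, at 0.57 to 1.19 in DN:HOM. The inhibitory ligand Cd274 (PD-L1) rose by 2.94 in KO:HOM and had 0.32 in DN:HOM, with an adjusted p of 0.596. This difference of -2.62 had an adjusted p of 0.00226 and was -2.71 over all 48 livers, also called. On the T cell side, edgeR tested 5 of 7 genes, without Ctla4 and Cd40lg, which had at most 18 and 9 reads per liver. On those few reads DESeq2 called Ctla4 higher in KO:HOM and Cd40lg higher in DN:HET. By edgeR in the fit of all groups, Cd4 and Cd3e rose in KO:HOM, by 1.19 and 2.21, and in DN:HET, by 1.29 and 1.82. They had 0.08 and 0.46 in DN:HOM, which were not called. In DN:HET, Cd3e alone was also called over all 48 livers. With only DN:HET and DN:WT in the fit, 0.0144% of all genes were called higher. Between the alleles Cd4 differed by -1.11 and Cd3e by -1.75, with edgeR adjusted p of 0.0797 and 0.0502, and DESeq2 called Cd3e. Lag3, a receptor that binds class II molecules, rose in both, by 1.18 in DN:HOM and 0.99 in KO:HOM, and Icos fell by 1.46 in DN:HOM.

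Markers of the cells that carry class II molecules moved with the members, and in bulk tissue a change in the number of such cells and a change in RNA per cell cannot be told apart. The liver label held, with Alb at 20318 CPM or more in every liver. The shares of all genes called higher were 29.1% in DN:HOM, 11.5% in KO:HOM and 2.23% in DN:HET. Over all 48 livers they were 23%, 8.79% and 0.25%. Summed over 8 genes, macrophage and monocyte markers were 73.6 to 147 CPM in DN:WT, 87.3 to 833 in DN:HET, 759 to 1240 in DN:HOM, 50 to 156 in KO:WT, 51.9 to 255 in KO:HET and 204 to 939 in KO:HOM. Of these 8 genes, 7 rose in DN:HOM, 7 in KO:HOM and 4 in DN:HET, and over all 48 livers 6, 7 and 0, the last with 3 at an unadjusted p below 0.05. Lyz2 rose by 4.28 in DN:HOM and 2.57 in KO:HOM, and Ccr2 by 3.03 and 2.10. Dendritic cell markers, 8 genes of which edgeR tested 7, summed to 9.46 to 14.6 CPM in DN:WT, 12.9 to 65.0 in DN:HET, 42.2 to 69.8 in DN:HOM, 10.6 to 18.9 in KO:WT, 10.7 to 25.9 in KO:HET and 26.5 to 63.6 in KO:HOM, and 5, 6 and 4 of them rose in DN:HOM, KO:HOM and DN:HET. Over all 48 livers these counts were 4, 5 and 0, the last with 4 at an unadjusted p below 0.05. The filter removed Cd209a, with 0 to 19 reads per liver. DESeq2 called Cd209a higher in DN:HOM, but not in KO:HOM or DN:HET, and higher in the knock-in minus knockout difference. Itgax, which macrophages can also express, rose by 4.65 in DN:HOM, 2.35 over all 48 livers, and by 3.29 in KO:HOM, the largest values of the list. Clec9a, of cross-presenting dendritic cells, had -0.43 in DN:HOM and was not called, rose by 1.10 in KO:HOM, and differed between the homozygous effects by -1.54 with an adjusted p of 0.00975. Zbtb46 rose by 0.55 in DN:HOM and had 0.05 in KO:HOM. The 6 B cell markers went otherwise. Their log2 fold changes were -1.14 to -0.00 in DN:HOM, where Pax5 fell by 1.10 among the 46 livers but was not called over all 48, and -0.40 to 0.39 in KO:HOM and -0.41 to 0.67 in DN:HET, where no marker was called or had an unadjusted p below 0.05 by edgeR. Their sum was 11.2 to 53.5 CPM in DN:WT, 12.1 to 26.9 in DN:HET, 8.87 to 17.8 in DN:HOM, 4.44 to 75.0 in KO:WT, 4.63 to 49.5 in KO:HET and 14 to 65.0 in KO:HOM.

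Resident macrophages of the liver, the Kupffer cells, went the other way. Their 6 markers all fell in DN:HOM, by 3.76 to 7.74 on the log2 scale, and over all 48 livers by 2.38 to 3.80, and 4 fell in KO:HOM, 3 of them over all 48 livers. Of all genes tested, 30% were called lower in DN:HOM and 7.87% in KO:HOM, and over all 48 livers 25% and 4.12%. The shares called higher were 29.1% and 11.5%, and over all 48 livers 23% and 8.79%. The sum was 140 to 268 CPM in DN:WT and 1.70 to 3.50 CPM in DN:HOM, against 82.6 to 304 CPM in KO:WT and 22.7 to 69.1 CPM in KO:HOM. In DN:HET the sum was 141 to 620 CPM, and the livers with the most Cd74 had the most of it, at 620 CPM in animal 22 and 573 CPM in animal 4, whose macrophage and monocyte sums were 833 and 793 CPM. Bile duct markers rose with the members in DN:HOM alone of the comparisons with wild-type, 4 of 4, their sum being 6.53 to 10.2 CPM in DN:WT, 46.9 to 62.6 in DN:HOM, 4.06 to 12 in KO:WT and 5.37 to 12.2 in KO:HOM. Of 4 stellate cell markers 3 rose in each homozygous group, of which 3 in DN:HOM and 0 in KO:HOM were called over all 48 livers, with 3 at an unadjusted p below 0.05 in the latter, and endothelial markers, 5 genes, gave 1 higher and 3 lower in DN:HOM and 1 higher in KO:HOM. Of 5 hepatocyte markers 3 fell in each homozygous group, and over all 48 livers 3 in DN:HOM and 1 in KO:HOM. The part of these cells in the change of the class II genes was not tested.

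**Figure D5:**
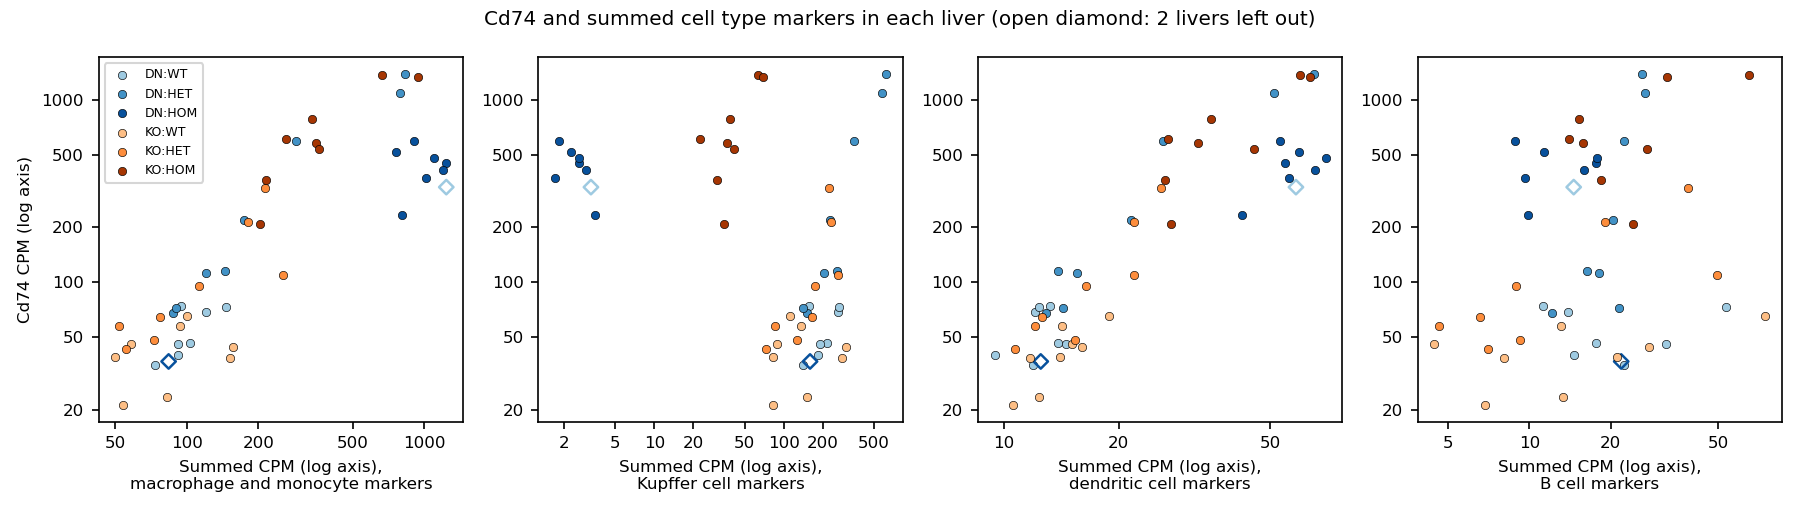
Cd74 level of each liver against the summed level of macrophage and monocyte, Kupffer cell, dendritic cell and B cell markers, in CPM on log axes, coloured by group. Points are livers and open diamonds the livers labelled DN:WT animal 10 and DN:HOM animal 12. DN:HOM livers combine macrophage and monocyte sums of 759 CPM or more with Kupffer cell sums of 3.50 CPM or less, whereas DN:HET animal 22 has 833 and 620 CPM.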

How the data were processed

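Messenger RNA of 48 mouse livers was sequenced with a stranded library. Per the study's methods and processing notes, the authors aligned reads with STAR 2.5.0a to GRCm39 with the Ensembl 104 annotation and deposited raw read counts per gene for each liver. The counts on the library's strand were used, as 6.97 to 8.62 times more reads fell on that strand. Reads naming no gene, 24.0% to 35.0% of a library, were left out. Genes were filtered with filterByExpr, scaled by the trimmed mean of M-values and tested with edgeR 4.0.16 (R 4.3.3) by quasi-likelihood in one fit of 6 group means, with Benjamini-Hochberg adjustment over all genes and a threshold of 0.05. DESeq2 1.42.0 served as an alternative. Permutation tests and correlations used scipy 1.17.1, and logs of ratios added 2 counts. CPM values were scaled over all 48 livers. The code was tested on simulated data.

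The main set is 46 livers. The 2 livers left out were identified by matching source data of the study for 3 genes and 22 knock-in livers to these counts, and no such match was made for the knockout livers. The members were taken by symbol, but members, lists and tests alike were chosen with earlier results of these data known. All members, the altered gene, any gene of the lists and the 10 genes closest to Cd74 could be named. Alternatives were all 48 livers, other size factors, no filter, unstranded counts, only the compared groups, no liver under 10000000 reads, a smaller added count and each liver left out in turn, the last added after the data had been seen. Each liver is labelled as a separate animal. A depth of 5332897 to 16961379 reads gave at least 287 reads for Cd74 but as few as 1 for H2-DMb2, and limits precision there. One hepatocyte symbol of the lists was not matched in the annotation and was not used here.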

Additional observations from a re-analysis of the deposited data

Results flagged for a closer look

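The liver labelled DN:WT animal 10 stood apart from the 7 other DN:WT livers for 7 of the 8 members, by a gap of more than 0.526 of the group's range (Dixon's limit for 8 livers). Its levels were 333 CPM for Cd74, 198 for H2-Aa, 145 for H2-Ab1, 144 for H2-Eb1, 13.3 for H2-DMa, 15.7 for H2-DMb1 and 7.73 for Ciita. These were the only livers so marked in 48 tests of a gene in a group, of which chance marks about 1 in 20, and the 7 values come from 1 liver. Its Nr1h3 level of 71.2 CPM lay in the range of DN:HOM.

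The homozygous effect on H2-DMb2 differed between the alleles, by -1.82 on the log2 scale in knock-in minus knockout, in edgeR's test of the difference itself. H2-DMb2 had few reads, and the call was not kept under several alternatives.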

How the results depend on the processing

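The counts of members called in DN:HOM, KO:HOM, KO:HET, DN:HOM against DN:HET and KO:HOM against KO:HET stayed within 1.5 times of the reported ones under every alternative run, and no fold change that had been called reversed. In DN:HOM against DN:HET, where no member was called, the sign changed, with 4 members above 0 among the 46 livers and 0 over all 48, and Cd74 running from -0.23 to 0.44 when 1 liver was left out. In DN:HET, where 7 members were called, 2 were called with all 48 livers, 0 with only the compared groups in the fit, and 6 to 7 when 1 liver was left out. For the difference between the homozygous effects, where 1 member was called, 0 were called with all 48 livers, with RLE size factors, with no filter on low counts and without the livers under 10000000 reads, 5 with only the compared groups, and 0 to 1 when 1 liver was left out. The adjusted p of H2-DMb2 in that difference ran from 0.019 to 0.11 over the fits with 1 liver left out. Of the values for single genes under the alternatives listed for them, 411 kept their side of the threshold, 18 no longer passed and 4 passed only then. When 1 liver was left out, 959 values for the members kept their side and 17 no longer passed, 16 of them for H2-DMb2 in the difference between the homozygous effects and the other for H2-DMa in DN:HET without animal 22. The cause of these changes was not tested, except that the fits with fewer groups or livers have fewer samples by construction. No paired analysis was possible because animals were numbered separately in each study and groups within a study share no numbers. Depth limits H2-DMb2, with a median of 14 reads per liver.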
